A study of Drosophila melanogaster with 9 samples.

Results

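The short Bomanins are a family of small secreted immune peptides of Drosophila melanogaster, and all 6 genes of the family, BomS1 to BomS6, were followed here out of 17187 genes or unnamed entries in the count tables. Members were picked by gene symbol, with earlier results of these data known, and RefSeq transcript rows were summed per symbol. The libraries hold RNA from whole larvae grown at 28 °C, with 20 larvae pooled per library and 3 biological replicates per genotype. The genotypes are tuSz1, hopTum and w1118, written here without the brackets that the labels put round the allele. The tuSz1 strain is a mutant whose immune system attacks its own fat body, and it is known to carry mutations in the N-glycosylation gene GCS1 and in the JAK kinase gene hop. The hopTum strain carries a gain-of-function allele of hop, whose larvae form melanotic masses. The control, w1118, is a white-eyed laboratory strain. These are separate strains, so a difference between them cannot be credited to a named allele.

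Bomanins are made mainly in the fat body, the fly's counterpart of liver, and are released into the hemolymph when the Toll pathway is active. In that pathway, recognition of fungi or Gram-positive bacteria sets off a chain of serine proteases that processes the ligand Spätzle, the receptor Toll is engaged, and the NF-kappaB factors Dif and Dorsal leave their inhibitor Cactus to switch on target genes. Short Bomanins consist of little more than the shared Bomanin motif, whereas tailed and bicipital Bomanins carry extra sequence or a second motif. Flies that lack most Bomanin genes are highly susceptible to fungi and to some Gram-positive bacteria. In whole-larva RNA, fewer cells of a type and less RNA per cell cannot be told apart.

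All 6 short Bomanins lie on chromosome arm 2R, inside a cluster of 10 Bomanin genes that spans 9237 bases and in which no other gene is annotated (build dm6, the build named in the submitters' processing notes). From the left end the order is BomT1, BomBc1, BomS1, BomS4, BomBc2, BomS2, BomS3, BomT2, BomS5 and BomS6. BomS1 (CG18108) runs from 18383949 to 18384378 on the plus strand. BomS4 (CG18107) starts 188 bases further on and runs from 18384567 to 18384911 on the plus strand. BomS2 (CG18106) occupies 18386602 to 18387030 and BomS3 (CG16844) occupies 18387895 to 18388734, both on the plus strand. BomS5 (CG15065) runs from 18389959 to 18390242 on the plus strand. BomS6 (CG15068), from 18390353 to 18390629, lies 110 bases beyond BomS5 and is the short member on the minus strand. Each annotated transcript of these genes has 2 exons, and the exonic length of a gene is between 198 bases in BomS6 and 769 bases in BomS3. Of the 281 exonic bases of BomS4, 88 at its 3′ end overlap exons of BomBc2 on the other strand. BomS3 has 2 listed transcripts that share 301 of its 769 exonic bases, while the other 5 genes have 1 listed transcript each.

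Library totals ran from 9552828 to 14517286 counts. Levels are given as CPM, the counts scaled to a common library size, with TMM factors, and a gene was tested if it passed a filter on low counts, which left 9106 genes. A gene is called where the edgeR quasi-likelihood test gives an adjusted p-value (Benjamini-Hochberg over the 9106 genes) under 0.05. A count of 3, taken as the floor, equals 0.2 to 0.358 CPM by library, and this floor covers counting error only. Some libraries stood apart. In tuSz1 replicate 3 the 6 salivary glue genes, markers of late larval salivary glands, summed to 33.1 CPM, against 56050 and 57460 CPM in tuSz1 replicates 1 and 2. In hopTum replicate 2 the summed CPM of 9 other Toll-induced peptides was 2823, against 389 and 739.2 CPM in hopTum replicates 1 and 3.

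BomS1, BomS2, BomS4 and BomS5 were scarce in w1118, with 0 to 8 counts in any w1118 library, and each reached at least 79 counts in some mutant library. These 4 passed the filter only through the mutant libraries, so they had to differ from w1118 in at least 1 mutant, and how many of them did is not support for anything further. BomS6 had at least 25 counts in every library of every genotype. BomS3, at 0 in 6 of the 9 libraries, did not pass the filter and was not tested.

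BomS1, which encodes an abundant hemolymph peptide of immune-challenged flies, was at 12.9, 21.8 and 15.8 CPM in tuSz1 replicates 1 to 3. The hopTum libraries held 9.29, 114.9 and 31.6 CPM of BomS1, and the w1118 libraries 0.221, 0.133 and 0.289 CPM. Every mutant library was above every w1118 library, and the tuSz1 values lay within the wider hopTum range. The means were 16.8 ± 4.51 CPM in tuSz1, 51.9 ± 55.6 CPM in hopTum and 0.214 ± 0.0783 CPM in w1118 (SD, n = 3 each).

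BomS2, another abundant hemolymph peptide, was at 4.66, 4.37 and 0.715 CPM in tuSz1. In hopTum it was at 8.17, 108.7 and 22.7 CPM, and in w1118 at 0, 0.133 and 0.579 CPM. All hopTum libraries were above all tuSz1 libraries, and the lowest tuSz1 value, in replicate 3, was close to the highest w1118 value. BomS2 averaged 3.25 ± 2.2 CPM in tuSz1, 46.5 ± 54.3 CPM in hopTum and 0.238 ± 0.303 CPM in w1118 (SD, n = 3 each).

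BomS4, a close paralog in the cluster, was at 5.04, 6.91 and 5.96 CPM in tuSz1. The hopTum libraries held 0.817, 2.54 and 0.527 CPM of BomS4, and all 3 w1118 libraries were at 0. Here the tuSz1 libraries were the highest, with no overlap with hopTum. Means were 5.97 ± 0.935 CPM in tuSz1 and 1.29 ± 1.09 CPM in hopTum (SD, n = 3 each).

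BomS5, the paralog next to BomT2, was at 0.38, 0.525 and 1.19 CPM in tuSz1, which are 4, 6 and 10 counts. It was at 2.55, 19.6 and 8.17 CPM in hopTum. In w1118 it had 2, 0 and 0 counts. The hopTum libraries were all above the tuSz1 libraries, which in turn were all above w1118, although tuSz1 was near the counting floor.

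BomS6, the minus-strand member at the right end, was at 8.84, 5.95 and 2.98 CPM in tuSz1. It was at 7.56, 8.19 and 18.5 CPM in hopTum, and at 6.32, 4.33 and 2.61 CPM in w1118. The tuSz1 and w1118 ranges overlapped, as did those of tuSz1 and hopTum, and the highest value was in hopTum replicate 3. The means were 5.92 ± 2.93 CPM in tuSz1, 11.4 ± 6.16 CPM in hopTum and 4.42 ± 1.86 CPM in w1118 (SD, n = 3 each).

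BomS3, which encodes a further hemolymph peptide of challenged flies, had 0, 8 and 0 counts in tuSz1, 0, 5 and 12 counts in hopTum, and 0 in each w1118 library. All of these counts stood under 1 of its 2 transcripts, and the other was listed at 0 in all 9 libraries. The part of the exonic bases shared between the transcripts in these low counts was not tested. In a fit with no filter, BomS3 had adjusted p-values of 0.224 in tuSz1 against w1118, 0.114 in hopTum against w1118 and 0.779 in tuSz1 against hopTum (edgeR).

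**Figure D1:**
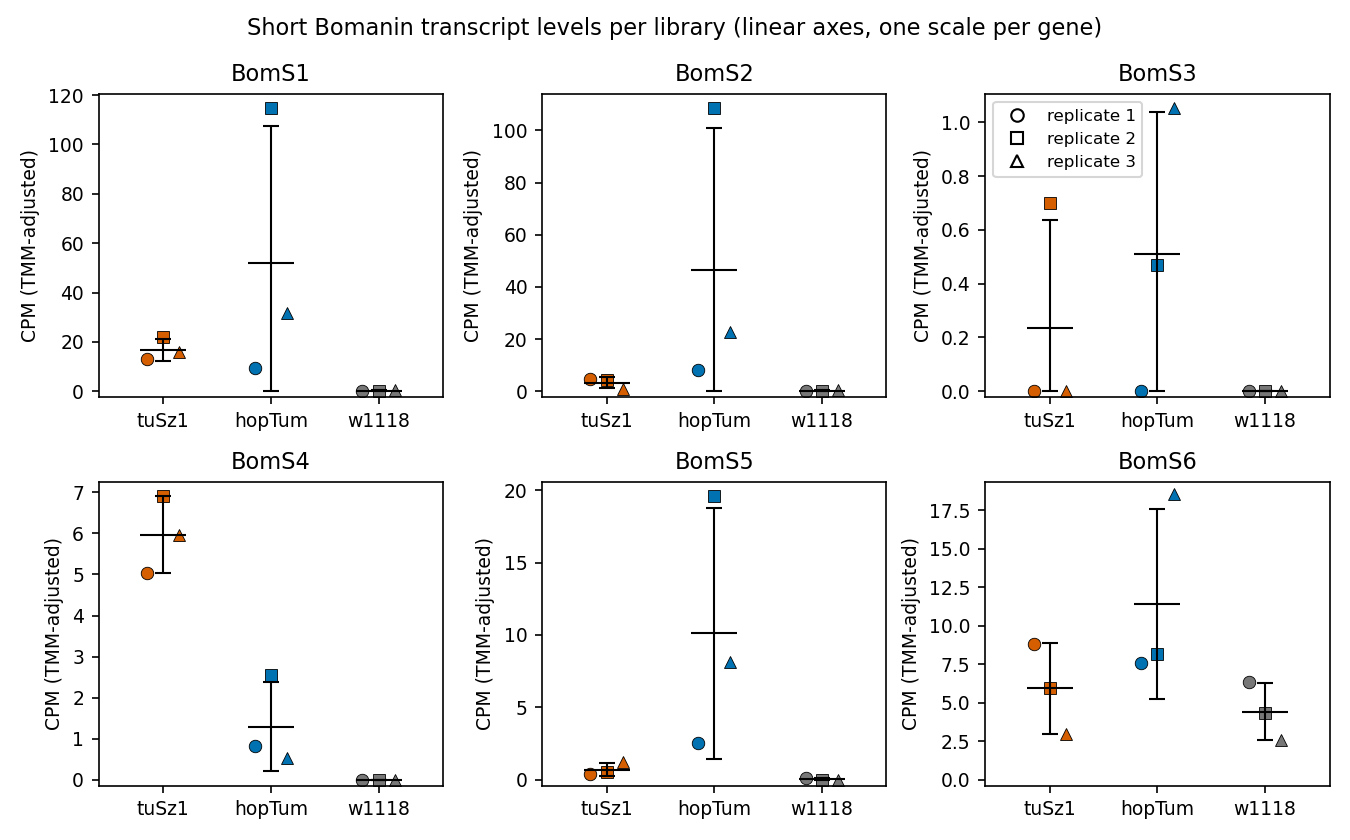
Level of each short Bomanin in each library, in CPM on linear axes with a scale of its own per gene, for tuSz1, hopTum and w1118 (points are replicates, the long bar is the mean and the whiskers are 1 SD, cut at 0). BomS4 was highest in tuSz1, at 5.04 to 6.91 CPM, whereas the highest values of the other 5 genes were in hopTum.

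Levels of different members were compared per length, as CPM per kilobase of exon. In tuSz1 the order of the means was BomS1 at 46.7, BomS6 at 29.9, BomS4 at 21.2, BomS2 at 8.85, BomS5 at 3.21 and BomS3 at 0.303 CPM per kilobase. The libraries of BomS1 and BomS6, of BomS6 and BomS4, and of BomS2 and BomS5 overlapped, while every BomS4 value, from 17.9 to 24.6, was above every BomS2 value, from 1.95 to 12.7. In hopTum the order was BomS1 at 143.8, BomS2 at 126.8, BomS6 at 57.7, BomS5 at 46.3, BomS4 at 4.61 and BomS3 at 0.661 CPM per kilobase. On full exonic lengths the first 4 of these overlapped one another and lay above BomS4 in all libraries. BomS3 lay below every other member in both mutants, with no overlap. With the 301 bases shared by its 2 transcripts left out, BomS3 came to 0.498 CPM per kilobase in tuSz1 and 1.09 in hopTum. How reads in those bases were counted is not known, so its low level may in part reflect the counting, which was not tested. In w1118 BomS6 stood at 22.3 CPM per kilobase, and each of the other members averaged at most 0.647. With the 88 bases that overlap BomBc2 left out of its length, BomS4 in tuSz1 came to 30.9 CPM per kilobase, beside 29.9 for BomS6. In hopTum BomS4 then averaged 6.71 CPM per kilobase and overlapped BomS5. It reached 13.2 in hopTum replicate 2, against 11.7 for BomS5 in hopTum replicate 1.

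The share of the family taken by each member also differed between the genotypes. In tuSz1 BomS1 took 40.6%, 54.1% and 59.4% of the short Bomanin counts and BomS4 took 15.8%, 17.2% and 22.3%. In hopTum BomS1 took 32.7%, 45.2% and 38.3%, and BomS4 only 2.88%, 1% and 0.638%. The lowest tuSz1 share of BomS4 had an exact (Clopper-Pearson) 95% interval of 12.1% to 20.2%, and the highest hopTum share 1.25% to 5.59%. BomS2 took 2.68% to 14.6% of the counts in tuSz1 and 27.5% to 42.7% in hopTum, and BomS5 took 1.19% to 4.46% in tuSz1 and 7.7% to 9.88% in hopTum, each without overlap. In w1118 BomS6 made up 94.5%, 94.2% and 75% of the 91, 69 and 48 short Bomanin counts. These intervals cover counting error within a library only, not the spread between replicates. Reads were not counted by molecule, so even the counting error may be larger.

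**Figure D2:**
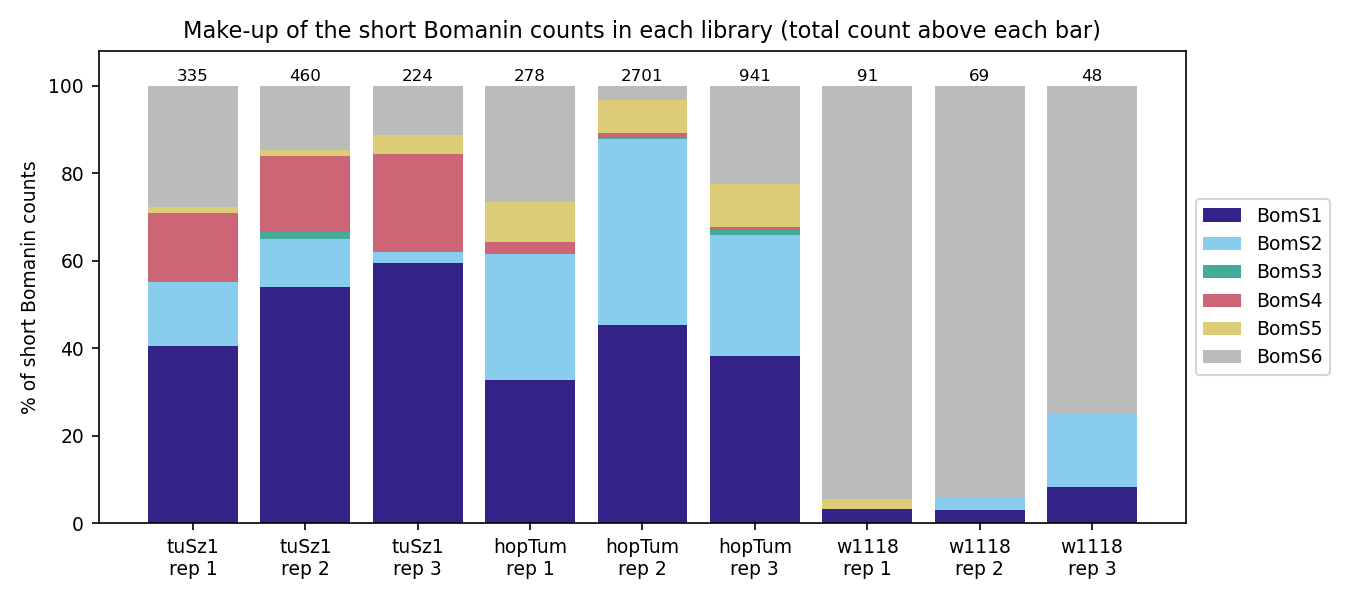
Share of the summed short Bomanin counts taken by each member in each library, in percent, with the total count above each bar. BomS4 held 15.8% to 22.3% in tuSz1, against 0.638% to 2.88% in hopTum, and BomS6 held 75% to 94.5% in w1118.

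Summed over the family, short Bomanins were at 31.9, 40.2 and 26.7 CPM in tuSz1, at 28.4, 254.3 and 82.6 CPM in hopTum and at 6.69, 4.6 and 3.47 CPM in w1118. Both mutants lay above w1118 in every library. The tuSz1 sums were close together and 2 of them were above the lowest hopTum sum.

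The comparison of tuSz1 with w1118 asks which short Bomanins differ in the strain that attacks its own tissue. Of the 5 tested, BomS1 and BomS4 were called, both higher in tuSz1, where 16.3% of all tested genes were called in either direction and 9.98% were called higher. For BomS1 the log2 fold change was 6.24, with a standard error of 0.94 and an edgeR adjusted p of 0.0015, or a mean 78.6-fold higher against 9 w1118 counts in all. BomS4, with no w1118 counts, was at least 28.1-fold higher against the floor of 3 counts per library (adjusted p = 0.000573, edgeR). BomS2 and BomS5 were not called, with log2 fold changes of 3.74 (95% interval 0.80 to 6.67, adjusted p = 0.0834, edgeR) and 3.57 (1.00 to 6.15, adjusted p = 0.0587, edgeR). For BomS5 the ratio of summed counts was 14, with a counting interval of 3.4 to 123.3. The BomS6 difference was 0.43 on the log2 scale (95% interval -0.72 to 1.57, adjusted p = 0.656, edgeR), and it turned to -0.26 when libraries were scaled to total counts, a scaling that moved the median of all tested genes to -0.70. The tuSz1 and w1118 libraries did not overlap for BomS1, BomS2, BomS4 and BomS5, a separation seen in 38.6% of all tested genes. The DESeq2 test also called BomS2 (adjusted p = 0.0359) and BomS5 (adjusted p = 0.0198), and without w1118 replicate 1 edgeR called BomS5 (log2 fold change 5.98, adjusted p = 0.0487). Without w1118 replicate 3, which held 8 of the 10 w1118 counts of BomS2, the BomS2 value was 5.36 (adjusted p = 0.0955, edgeR).

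The comparison of hopTum with w1118 asks the same of larvae with an activated JAK kinase. BomS1, BomS2, BomS4 and BomS5 were called, all higher in hopTum, beside 18.1% of all tested genes called in either direction and 11.5% called higher. BomS1 stood at 7.86 on the log2 scale, with a standard error of 0.98 and an edgeR adjusted p of 0.000397. BomS2 stood at 7.56, with a standard error of 1.39 and an edgeR adjusted p of 0.00665. On means these were 242.1-fold and 195.9-fold, against 9 and 10 w1118 counts in all. BomS5 rose with a ratio of summed counts of 217.4, with a counting interval of 59.7 to 1803 because w1118 held 2 counts (adjusted p = 0.000884, edgeR). BomS4 was at least 6.09-fold higher in hopTum against the floor (adjusted p = 0.0037, edgeR), and at least 3.16-fold without hopTum replicate 2. BomS6 was at 1.37 on the log2 scale and was not called (95% interval 0.22 to 2.52, adjusted p = 0.095, edgeR), although all 3 hopTum libraries were above all 3 w1118 libraries. All 5 tested members were without overlap here, against 39.0% of all tested genes. Without hopTum replicate 2 the log2 fold changes were smaller, at 6.52 for BomS1 and 5.97 for BomS2, and BomS1, BomS2, BomS4 and BomS5 were all still called. Without w1118 replicate 3 BomS2 stood at 9.18, and the ratio of summed BomS5 counts was 118.2 without hopTum replicate 2 and 140.5 without w1118 replicate 2. Without w1118 replicate 1, the w1118 library with BomS5 counts, BomS5 was at least 48.4-fold higher in hopTum against the floor.

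Over the 5 tested members, the median log2 fold change was 3.74 in tuSz1 against w1118 and 7.44 in hopTum against w1118, where all tested genes had medians of 0.08 and -0.05. With BomS4 set to its bound in place of its fitted value, both medians were the same. BomS1, BomS2, BomS4 and BomS5 passed the low-count filter only through the mutant libraries. Both medians are therefore a description, and their distance from all tested genes is not support for anything further. The tuSz1 and hopTum comparisons share the w1118 libraries, so their values stand side by side and are not independent.

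The comparison of tuSz1 with hopTum sets the mutants against each other directly. Without the hopTum libraries BomS2 and BomS5 did not pass the low-count filter, and without the tuSz1 libraries BomS4 did not. Calls of these members between the mutants are therefore a description, and not support for anything further. Of the 5 tested members BomS5 was called, lower in tuSz1, where 9.66% of all tested genes were called in either direction and 4.14% were called lower. Its log2 fold change was -3.87, with a standard error of 0.85 and an edgeR adjusted p of 0.0151, at 0.699 ± 0.433 CPM in tuSz1 and 10.1 ± 8.68 CPM in hopTum (SD, n = 3 each). This call was lost without hopTum replicate 2 (log2 fold change -2.95, adjusted p = 0.0558, edgeR), without tuSz1 replicate 1 (-3.57, adjusted p = 0.0566) and without tuSz1 replicate 2 (-3.70, adjusted p = 0.0556). BomS4 ran the other way, with a log2 fold change of 2.20 that was not called (95% interval 0.74 to 3.66, adjusted p = 0.064, edgeR). Without hopTum replicate 2 it was called, at 3.14 (adjusted p = 0.0185, edgeR), and the DESeq2 test called it with all libraries (adjusted p = 0.0172).

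BomS2 had a log2 fold change of -3.82 in tuSz1 against hopTum (95% interval -6.31 to -1.33, adjusted p = 0.0621, edgeR). It was called without hopTum replicate 1 (-4.36, adjusted p = 0.0435, edgeR), under total count scaling (-3.99, adjusted p = 0.0313, edgeR) and by the DESeq2 test (adjusted p = 0.0234). BomS1, at -1.62 (95% interval -3.15 to -0.10, adjusted p = 0.18, edgeR), was called without hopTum replicate 1 alone among the libraries left out (-2.17, adjusted p = 0.032, edgeR), whereas without hopTum replicate 2 it stood at -0.28 (adjusted p = 0.784, edgeR). BomS2 stood at -2.23 without hopTum replicate 2. BomS6 was at -0.94 (95% interval -2.09 to 0.20, adjusted p = 0.3, edgeR). BomS2, BomS4 and BomS5 did not overlap between the mutants, a separation seen in 29.1% of all tested genes. Each of them passed the low-count filter through the mutant where it is high, so the filter favours this separation. The median over the 5 members was -1.62, against 0.03 over all tested genes. Both the separation and this median are a description.

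**Figure D3:**
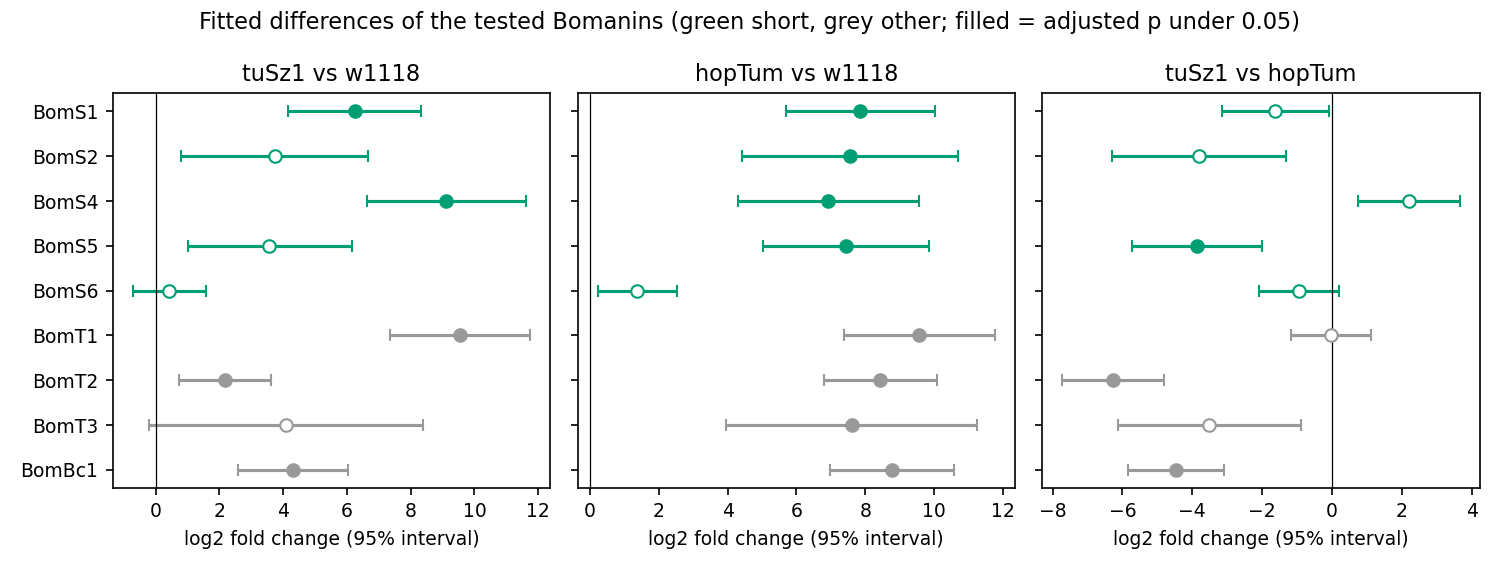
Fitted log2 fold changes with 95% intervals for the tested short Bomanins (green) and the tested other Bomanins (grey) in the 3 comparisons, with filled points for adjusted p under 0.05 (edgeR). BomS4 lay at 2.20 in tuSz1 against hopTum while the other short members lay between -3.87 and -0.94.

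Count ratios within a library, which do not depend on how libraries are scaled, were examined after the values above were seen. The BomS4 count was 0.39, 0.317 and 0.376 of the BomS1 count in tuSz1 replicates 1 to 3, against 0.0879, 0.0221 and 0.0167 in hopTum. These differ by 3.50 on the log2 scale, with no overlap. The BomS5 to BomS1 ratio was 0.0294, 0.0241 and 0.0752 in tuSz1 and 0.275, 0.17 and 0.258 in hopTum, a difference of -2.61. The BomS2 to BomS1 ratio was 0.36, 0.201 and 0.0451 in tuSz1 and 0.879, 0.946 and 0.719 in hopTum, a difference of -2.51. Each of these 3 had an exact two-sided permutation p of 0.1, the smallest that 3 against 3 libraries allow, and 0.133 when adjusted over the 4 ratios examined. All 4 ratios share the BomS1 count, so they are not independent. They were also picked with the separations known, so these p-values are a description. The BomS6 to BomS1 ratio ranged from 0.188 to 0.684 in tuSz1 and from 0.0713 to 0.813 in hopTum and differed by 0.02 (exact permutation p = 1).

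**Figure D4:**
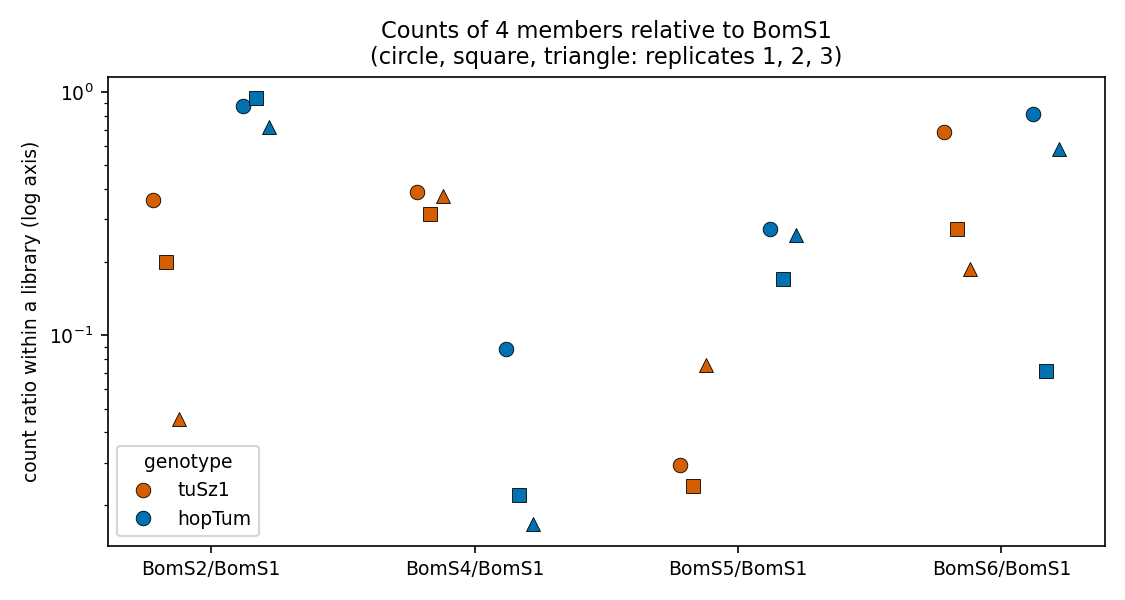
Counts of BomS2, BomS4, BomS5 and BomS6 divided by the BomS1 count of the same library, on a log axis, for the 3 tuSz1 and the 3 hopTum libraries. BomS4 was at 0.317 to 0.39 of BomS1 in tuSz1 and at 0.0167 to 0.0879 in hopTum, while the BomS2 and BomS5 ratios were lower in every tuSz1 library.

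Replicates of hopTum spread widely. BomS1 was 12.4-fold, BomS2 13.3-fold and BomS5 7.67-fold higher in the highest hopTum library, replicate 2, than in the lowest, replicate 1. In tuSz1 the same ratio of highest to lowest was 1.68 for BomS1, 6.52 for BomS2 and 3.13 for BomS5. BomS6 did not share the hopTum order, as it was highest in replicate 3. The fat body marker list also peaked in hopTum replicate 2. Its 7 genes summed to 38020, 78800 and 22060 CPM in hopTum replicates 1 to 3. Nearly all of this was Lsp1alpha and Lsp1gamma, 2 larval serum protein genes, while Fbp1 was listed at 0 in every library and Lsp1beta, Lsp2 and Fbp2 averaged at most 1.52 CPM in any genotype.

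Between genotypes the fat body markers summed to 74270 to 194700 CPM in tuSz1, 22060 to 78800 CPM in hopTum and 11830 to 23240 CPM in w1118. Of the 3 tested, Lsp1gamma and apolpp were called higher in tuSz1 than in w1118, Lsp1gamma was called higher in hopTum than in w1118, and apolpp was called higher in tuSz1 than in hopTum. Short Bomanin sums were higher in both mutants than in w1118, as the fat body sums were in tuSz1, but the largest Bomanin sums were in hopTum and the largest fat body sums in tuSz1. The lamellocyte markers, of large blood cells that wrap foreign bodies, summed to 2508 to 2680 CPM in tuSz1. They summed to 15540 to 17500 CPM in hopTum and 10.1 to 14.6 CPM in w1118, with atilla listed at 0. Nearly all of this in the mutants was PPO3 and ItgaPS4, while msn averaged at most 1.36 CPM in any genotype and was not called in any comparison. Plasmatocyte markers summed to 28.8 to 70.6 CPM in tuSz1, 62.9 to 94.7 CPM in hopTum and 37.9 to 89.4 CPM in w1118, with Hml listed at 0. Most of this was eater, which was not called in any comparison, and neither was crq. NimC1 was called higher in both mutants than in w1118. Sr-CI averaged 9.42 CPM in hopTum, 0.09 CPM in tuSz1 and 0 in w1118. It was called in both comparisons with hopTum, having passed the low-count filter only through hopTum. Midgut markers summed to 38560 to 64010 CPM in tuSz1, 9014 to 16460 CPM in hopTum and 14520 to 26120 CPM in w1118. Most of this was Jon65Aiii and Jon65Aiv. Of the 4 midgut markers tested, 2 were called higher in tuSz1 than in w1118. Jon99Ci was called lower there (log2 fold change -1.73, adjusted p = 0.0313, edgeR). The midgut marker alphaTry was called lower in hopTum than in w1118 (-1.01, adjusted p = 0.0465, edgeR). Jon65Aiii, Jon65Aiv and alphaTry were called higher in tuSz1 than in hopTum. The part of fat body or blood cell RNA in the Bomanin differences was not tested. Glue genes were near 0 in tuSz1 replicate 3 alone, the tuSz1 library with the lowest BomS2, and without that library BomS1 and BomS4 were still called against w1118 and BomS5 against hopTum.

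Of the 6 other Bomanins 4 were tested. Of these, 3 were called higher in tuSz1 than in w1118, 4 were called higher in hopTum than in w1118, and 2 were called lower in tuSz1 than in hopTum, beside 9.98%, 11.5% and 4.14% of all tested genes in those directions. These 4 had 0 to 16 counts in any w1118 library and passed the low-count filter through the mutants, so these counts too are a description. BomT1, a tailed Bomanin at the left end, was at 8.03 ± 3.5 CPM in tuSz1, 8.16 ± 3.46 CPM in hopTum and 0 in w1118 (SD, n = 3 each), with a log2 fold change of -0.02 between tuSz1 and hopTum (95% interval -1.17 to 1.12, adjusted p = 0.984, edgeR). BomBc1, a bicipital Bomanin with a second motif, was at 3.01 ± 1.56 CPM in tuSz1, 67.3 ± 38.6 CPM in hopTum and 0.146 ± 0.147 CPM in w1118 (SD, n = 3 each), with a log2 fold change between the mutants of -4.46 (standard error 0.64, edgeR adjusted p = 0.00141). The tailed BomT2 was at 2.66 ± 1.71 CPM in tuSz1, 210.1 ± 101.8 CPM in hopTum and 0.602 ± 0.5 CPM in w1118 (SD, n = 3 each), and it fell by 6.27 on the log2 scale in tuSz1 against hopTum (edgeR adjusted p = 0.000364). BomT3, a tailed Bomanin on arm 3R, was at 0.188 ± 0.254 CPM in tuSz1, 2.08 ± 1.96 CPM in hopTum and 0 in w1118 (SD, n = 3 each), and was called in hopTum against w1118. BomBc2, the overlapping partner of BomS4, was listed at 0 in all libraries. Of its 711 exonic bases, 505 are shared by its 2 transcripts and 88 overlap BomS4, which leaves 118. In BomT3, 503 of 657 exonic bases are shared by its 2 transcripts. How reads in shared bases were counted is not known. The 0 of BomBc2 and the low level of BomT3 may in part reflect the counting, which was not tested. Between the mutants, the neighbours BomS1 and BomS4 stood at -1.62 and 2.20 on the log2 scale, and the neighbours BomS5 and BomS6 at -3.87 and -0.94. The 6 other Bomanins summed to 18.2, 17.6 and 7.75 CPM in tuSz1, 175, 286.3 and 401.6 CPM in hopTum and 1.62, 0.4 and 0.507 CPM in w1118. Their hopTum peak was in replicate 3, whereas that of the short Bomanins was in replicate 2.

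**Figure D5:**
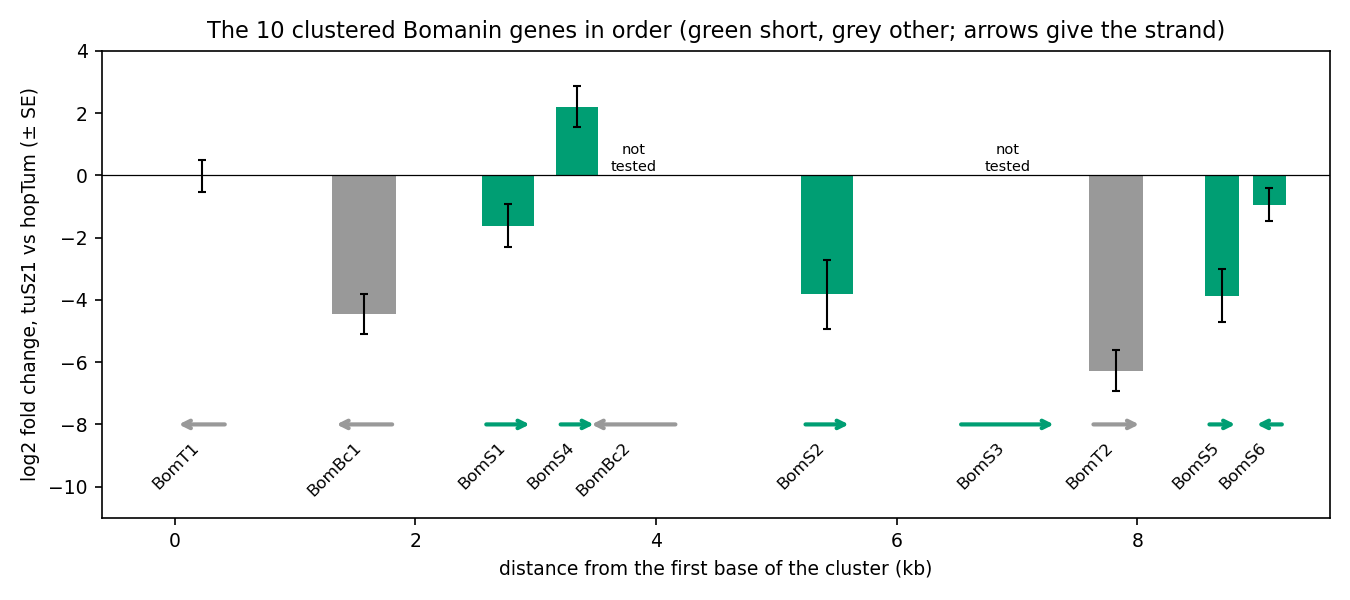
Log2 fold change (± SE) of tuSz1 against hopTum for each clustered Bomanin gene, placed by distance from the first base of the cluster in kilobases, with green for short and grey for other Bomanins and arrows for the strand. BomS4 lay at 2.20 beside BomS1 at -1.62, and BomS3 and BomBc2 were not tested.

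Other Toll-linked genes were read from lists of peptides and pathway components. Of 9 other Toll-induced peptides, 6 were tested, with 1 called in tuSz1 against w1118, 2 in hopTum against w1118 and 1 in tuSz1 against hopTum, where 16.3%, 18.1% and 9.66% of all tested genes were called. Dso2, a Daisho peptide gene, was called higher in tuSz1 than in w1118 (log2 fold change 5.05, adjusted p = 0.0171, edgeR) and in hopTum than in w1118 (8.10, adjusted p = 0.0016), and the antifungal gene Drs was called higher in hopTum than in w1118 (4.58, adjusted p = 0.0287). Drs was lower in tuSz1 than in hopTum (-4.41, adjusted p = 0.0473, edgeR), the 1 call of this list between the mutants. In tuSz1 against w1118, 3 of the 6 tested peptides lay higher and 3 lower. Drs stood at 0.17 there (adjusted p = 0.936, edgeR) and Mtk, another peptide gene of the list, at -2.13 (adjusted p = 0.386). Bbd, whose product Bombardier is needed for short Bomanins to act, was at 0.215 ± 0.275 CPM in tuSz1, 1.74 ± 0.812 CPM in hopTum and 0.386 ± 0.669 CPM in w1118 (SD, n = 3 each) and was not called in any comparison (adjusted p from 0.223 to 0.79, edgeR).

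Of 18 Toll pathway components, 13 were tested and grass, spz and pll were listed at 0. In tuSz1 against w1118, 2 of the 13 were called, both higher, a share close to the 16.3% of all tested genes called in that comparison. In hopTum against w1118, 4 of the 13 were called, where 18.1% of all tested genes were, and in tuSz1 against hopTum 2 of the 13, where 9.66% were. In tuSz1 against w1118 SPE, the protease that cleaves Spätzle, had a log2 fold change of 2.83 (adjusted p = 0.000546, edgeR) and nec, a serpin inhibitor of the cascade, of 1.44 (adjusted p = 0.0158). In hopTum against w1118, SPE at 2.99 (adjusted p = 0.000342, edgeR), nec at 1.90 (adjusted p = 0.00385) and the recognition protein gene GNBP1 at 0.83 (adjusted p = 0.0314) were called higher. The gene cact, which encodes Cactus, was called lower at -1.14 (adjusted p = 0.0151, edgeR). In tuSz1 against hopTum, the recognition protein gene PGRP-SD was called higher at 1.68 (adjusted p = 0.0181, edgeR) and the protease gene modSP lower at -1.15 (adjusted p = 0.0208), while SPE did not separate the mutants (-0.16, adjusted p = 0.829).

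The genes whose pattern was most like that of the short Bomanins were found by the root mean squared difference between centred log2 CPM profiles over the 9 libraries, with the mean of the 5 tested members as the pattern and 9101 other genes compared. The closest were Obp49a (an odorant-binding protein, 0.50), GstE2 (a glutathione transferase, 0.51), axed (0.51), CG11425 (0.61) and CG5835 (0.67). Obp49a was at 96.8 ± 16.6 CPM in tuSz1, 242.5 ± 175.1 CPM in hopTum and 15.6 ± 2.89 CPM in w1118 (SD, n = 3 each), and like BomS1 it was highest in hopTum replicate 2, at 444.6 CPM. GstE2 was at 17.6 ± 1.26 CPM in tuSz1, 33.04 ± 13.8 CPM in hopTum and 1.47 ± 0.673 CPM in w1118 (SD, n = 3 each). The members lay further from their own mean than these genes did, from 0.98 for BomS5 to 1.59 for BomS6, with BomS4 at 1.51.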

How the data were processed

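Whole-larva RNA of 3 genotypes, 3 libraries each, was analysed. The deposited values are raw read counts, 1 table per library with 34111 RefSeq transcript entries. The submitters' processing notes name FastQC 0.11.8, HISAT2 2.1.0, featureCounts 1.6.3 and the build dm6. Strand and multi-mapping settings are not given in the sources used here. Without strand, reads of overlapping genes such as BomS4 and BomBc2 cannot be told apart, and reads of near-identical Bomanin paralogs may be split or dropped, so the separate values are uncertain.

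Entries were matched to symbols through a RefSeq gene table (Release 6 plus ISO1 MT) and summed per gene. An exact match was found for 33766 entries, a match apart from the version number for 146, and none for 199 entries, which held 0.421% of counts. Exon structures came from an Ensembl annotation in dm6 coordinates. Groups came from the titles. Replicate pairs differed by more than sampling noise (chi-square per degree of freedom from 49.8 to 245.6).

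Genes were tested with edgeR 4.0.16 in R 4.3.3: quasi-likelihood fits (robust) of a genotype term to all 9 libraries, after TMM scaling and filterByExpr, with Benjamini-Hochberg adjustment over 9106 genes. Standard errors were obtained from the F statistic and the log2 fold change, and intervals from the total degrees of freedom of the fit. Named genes were all 6 members, the called genes of the fixed peptide and pathway lists, cell type markers and the 5 genes of most similar pattern (prior count 2 for log2 CPM). Members and lists were chosen with earlier results of these data known. Alternatives were other scalings, filters, the DESeq2 1.42.0 Wald test, fits of 6 libraries, a replicate block, counts per transcript and leaving out each replicate. The fold bounds and count ratios of BomS4 and BomS5 without each library were added after the data were seen.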

Additional observations from a re-analysis of the deposited data

How the results depend on the processing

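Directions of the 5 tested members held under every alternative that tested them, except that BomS6 in tuSz1 against w1118 turned to -0.26 under total count scaling, where the median of all tested genes was -0.70 (-0.41 in hopTum against w1118 and -0.39 in tuSz1 against hopTum). BomS1 and BomS4 stayed called against w1118 in both mutants, and BomS2 and BomS5 in hopTum, in every fit that tested them. These members passed the filter only through mutant libraries, so their staying called is a description. Fits of only the 6 libraries compared tested 3 members in tuSz1 against w1118, without BomS2 and BomS5. In hopTum against w1118 such a fit tested 4, without BomS4. The number of members called was 2 in tuSz1 against w1118, 4 in hopTum against w1118 and 1 in tuSz1 against hopTum. In the same order it was 1, 2 and 0 with a mean count of at least 50, which leaves 3 members to test. Of the 6232 genes tested there, 1220, 1301 and 771 were called. The DESeq2 test called 4 in tuSz1 against w1118, beside 1927 of 9106 genes, and 3 in tuSz1 against hopTum, beside 1341. Total count scaling called 2 in tuSz1 against hopTum, beside 1408 genes. The cause of these changes was not tested. Leaving out each library gave 2 to 3, 4 to 4 and 0 to 3 calls. With the replicate block the numbers were 2, 4 and 1. The replicate numbers only name libraries, since same-numbered deviations correlated at -0.0851 on average (from -0.351 to 0.165) and 3 of 18 comparisons were highest for the own number. Over all genes, called numbers were 1485, 1649 and 880. They were 986 and 504 with the block in the comparisons of tuSz1 with w1118 and with hopTum, 1341 by DESeq2 and 1408 under total count scaling in tuSz1 against hopTum, and from 786 to 1487, 823 to 1538 and 507 to 842 with a library left out. TMM gave 909 higher and 576 lower genes in tuSz1 against w1118, 1043 and 606 in hopTum against w1118, and 503 and 377 in tuSz1 against hopTum. Total count scaling gave 433 higher and 1749 lower in tuSz1 against w1118, 486 and 810 in hopTum against w1118, and 389 and 1019 in tuSz1 against hopTum. Without the 50 most counted genes there were 698 and 743 in tuSz1 against w1118 and 754 and 733 in hopTum against w1118. Depth limits BomS3 and BomS5 in tuSz1, which held at most 10 counts in a library, and all members but BomS6 in w1118. In fits that leave out 1 library the spread is pooled over genotypes.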

Other observations

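Antimicrobial peptides of the IMD pathway, the other main route of fly humoral immunity, were measured beside the short Bomanins. Of 11 listed genes 8 were tested, with 2 called in each comparison, where 16.3% (tuSz1 against w1118), 18.1% (hopTum against w1118) and 9.66% (tuSz1 against hopTum) of all tested genes were called. The summed level of the list was 91.3 to 186 CPM in tuSz1, 137.6 to 198.3 CPM in hopTum and 21.6 to 102.3 CPM in w1118. The attacin gene AttA was called higher in tuSz1 than in w1118 (log2 fold change 5.93, adjusted p = 0.000121, edgeR) and than in hopTum (6.12, adjusted p = 0.000277). The cecropin gene CecC was called higher in tuSz1 than in w1118 (2.77, adjusted p = 0.00672, edgeR) and in hopTum than in w1118 (5.29, adjusted p = 0.00014), and lower in tuSz1 than in hopTum (-2.51, adjusted p = 0.0126). The diptericin gene DptB was called higher in hopTum than in w1118 (4.16, adjusted p = 0.0135, edgeR).

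BomBc3, a bicipital Bomanin on arm 3R, did not pass the filter. It averaged 0.611 ± 0.618 CPM in tuSz1, was listed at 0 in hopTum and averaged 0.0935 ± 0.0812 CPM in w1118 (SD, n = 3 each). Of its 1301 exonic bases, 522 are shared between its transcripts, so its low level may in part reflect the counting, which was not tested.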
